A study of Mus musculus with 4 samples.

Results

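Chemokines are small secreted proteins that steer cell movement, and their receptors are cell surface proteins of the G protein-coupled family. The genes of both were read on 4 one-colour expression arrays. Members were all genes whose symbol starts with Ccl, Cxcl, Ccr, Cxcr or Ackr followed by a number, and at most 1 letter after it. By this rule 52 of the 20660 genes named on the array were members, 32 of them ligands, 16 receptors and 4 atypical receptors, read by 62 probes. The cells were mouse embryonic stem cells of the line EB5 that carried an RFP reporter for the gene Hoxb6. They had differentiated for 6 days on a feeder of OP9 cells, which are stromal cells of mouse bone marrow, and were sorted with an antibody to Flk-1, the VEGF receptor encoded by Kdr. The compared groups were the Flk-1+Hoxb6-RFP+ fraction (RFP-positive, 2 arrays) and the Flk-1+Hoxb6-RFP- fraction (RFP-negative, 2 arrays). All 4 samples share the cell line, the reporter, the feeder and the Flk-1 sort. The labels do not say whether the 2 replicates of a fraction came from separate cultures, so that p-values measure the spread between these samples, which may be technical.

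Ligands of the CC class (Ccl genes) have adjacent cysteines near their start, and those of the CXC class (Cxcl genes) have 1 residue between them. Conventional receptors (Ccr and Cxcr genes) signal through inhibitory G proteins, while atypical receptors (Ackr genes) bind ligands without that coupling and mostly take them up. In the embryo Cxcl12 and its receptor Cxcr4 guide the growth of vessels and the homing of blood stem cells. In the marrow, stromal cells are a known source of Cxcl12.

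Levels are given on the log2 scale, as the signal over the 75th percentile of its array, and a difference is the RFP-positive level minus the RFP-negative one. Probes bind with different strength, so a level is compared between arrays and never between genes. Between 55.2% and 59.3% of the spots on an array carried the scanner software's mark for a signal well above background, and 0 were saturated. Kdr was strong, at 4.41 and 4.36 in RFP-positive cells and 4.18 and 4.33 in RFP-negative cells. The Hoxb6 probe was well above background on 0 arrays, so that this transcript gives no check of the RFP labels. Over the 13420 genes tested, RFP-positive replicate 1 correlated more closely with RFP-negative replicate 1 (Pearson r 0.982) than with RFP-positive replicate 2 (0.964), and RFP-positive replicate 2 had the lowest values, 0.953 and 0.95 with the RFP-negative arrays. These correlations are across genes, which are not independent replicates.

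Of the 52 members, 30 were well above background on no array, 10 on 1 to 3 arrays and 12 on all 4, counting a gene if any of its probes was. The 22 members with such a signal on at least 1 array were 42.3%, against 73.3% of all 20660 genes. The count depends on the mark, since by the scanner's laxer one, for a signal that is positive and significant, it was 46 members (88.5%), against 93.4% of all genes. The 12 were the ligands Ccl5, Ccl19, Ccl25, Ccl27a, Cxcl1, Cxcl5, Cxcl9, Cxcl12 and Cxcl16, the receptor Cxcr4 and the atypical receptors Ackr1 and Ackr3. Per array the number was 15 and 16 members in RFP-positive cells and 19 and 18 in RFP-negative cells. Of the 16 conventional receptors, 11 were well above background on no array. Of the 10 Ccr genes, which serve mainly leukocytes, 8 were not, among them Ccr1, Ccr2, Ccr3 and Ccr9. Among Cxcr genes the same held for Cxcr1, Cxcr2 and Cxcr5, and among atypical receptors for Ackr2 and Ackr4. The 17 ligands in this state were Ccl1, Ccl4, Ccl6, Ccl8, Ccl11, Ccl12, Ccl20, Ccl22, Ccl26, Ccl28, Cxcl2, Cxcl3, Cxcl10, Cxcl13, Cxcl14, Cxcl15 and Cxcl17. No level is given for these 30 genes.

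**Figure D1:**
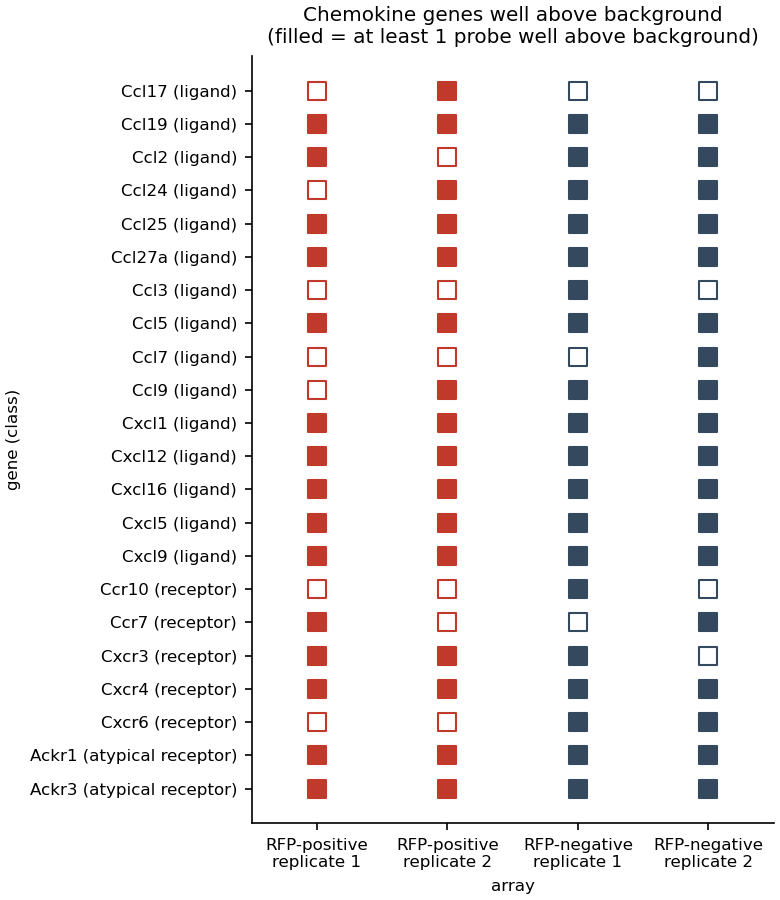
Members with at least 1 probe well above background on at least 1 array, by array. Each row is a gene with its class and each column an array; filled squares mark a gene well above background there, open squares one that was not. Cxcr6 was filled in both RFP-negative arrays and in neither RFP-positive array.

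A member was tested if its brightest probe was well above background on both arrays of at least 1 fraction. This left 16 members (30.8%, against 65% of all genes), 12 ligands, 2 receptors and 2 atypical receptors. Ccl2, Ccl9 and Ccl24 entered through the RFP-negative arrays and Cxcr3 through the RFP-positive arrays, with 1 of the 2 arrays of the other fraction measured. A gene that enters through 1 fraction tends to be higher there, so counts over the 16 describe them and support nothing further.

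No member passed the test between the fractions. By limma's moderated test, with p-values adjusted over 13420 genes after Benjamini and Hochberg, 0 of 16 members had an adjusted p under 0.05, and 0 of all genes did (0%). At an unadjusted p under 0.05 there were 2 lower members, Ccl9 and Cxcl5 (3.72% of all genes were lower at that level), and 1 higher member, Ackr3 (2.77% of all genes). Of the 12 members measured on all 4 arrays, 1 was lower and 1 higher at that level, against 2.48% and 2.22% of the 12407 genes so measured. Both RFP-positive arrays were below both RFP-negative arrays for 6 members, all of them ligands, against 21.6% of all genes tested. They were above for 3 members, Ccl5, Ackr1 and Ackr3, against 18.8% of all genes, and 3 of 16 is the same share. In either direction this makes 9 of 16, against 40.4%. Of the 12 members measured on all 4 arrays, 4 were lower and 3 higher without overlap, against 20.4% and 19.0% of genes so measured, together 7 against 39.4%. With signals centred on the array's median instead, 4 members were lower and 3 higher without overlap, against 16.6% and 24.4% of all genes. With 3 arrays a lack of overlap is easier to reach. Without RFP-negative replicate 2, 11 of 16 members were lower, against 37.3% of all genes, and without RFP-negative replicate 1, 7 were higher, against 31.1%. At an unadjusted p under 0.05 there were 5 members without RFP-negative replicate 1, against 4.93% of all genes. The median difference was −0.08 over the 16 members and −0.05 over all genes tested.

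**Figure D2:**
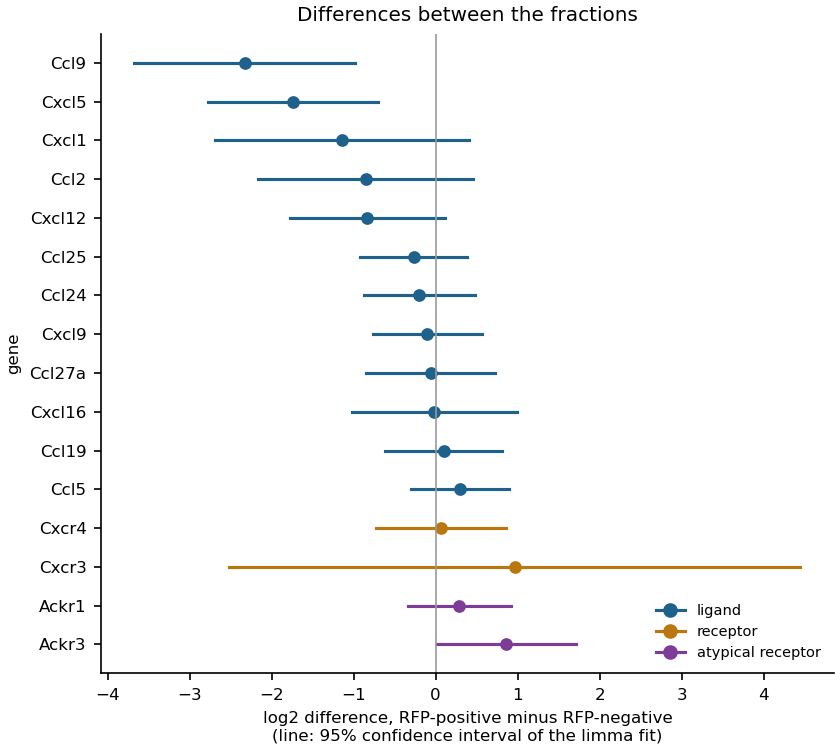
Differences of the 16 tested members on the log2 scale, RFP-positive minus RFP-negative. Points are fitted differences, lines their 95% confidence intervals from limma, and colours the class; the intervals of Ccl9 and Cxcl5 lie below 0 and that of Ackr3 just above, before any adjustment for the number of genes.

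The ligands with the largest differences were Ccl9 and Cxcl5, both lower in RFP-positive cells. For these 2 members each RFP-positive array was at least 2-fold below each RFP-negative array, as for 0.887% of all genes tested, and 0 members were so far above (0.469% of all genes). Among genes measured on all 4 arrays the shares were 0.274% below, with Cxcl5 the 1 member of 12, and 0.169% above, with 0 members. Ccl9, a mouse CC chemokine that acts through Ccr1 on myeloid cells, was at −4.32 and −4.02 in RFP-positive cells and −2.55 and −1.14 in RFP-negative cells. Its signal on RFP-positive replicate 1 was not well above background. Every RFP-negative value was above every RFP-positive value, and the RFP-negative arrays differed from each other more than the RFP-positive ones. The fitted difference was −2.33 (SE 0.52, n = 2 each, limma adjusted p 0.658). Ccr1, its receptor, was well above background on 0 arrays.

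Cxcl5, a CXC chemokine that draws neutrophils through Cxcr2, was at −3.57 and −3.36 in RFP-positive cells and −2.22 and −1.22 in RFP-negative cells, measured on all 4 arrays. RFP-negative replicate 2 was the highest and the fractions did not overlap. The difference was −1.74 (SE 0.40, n = 2 each, limma adjusted p 0.663). Under normexp background correction, which adds an offset that shrinks changes of dim probes, the difference was −0.68 for Cxcl5 and −0.90 for Ccl9, and neither then kept that 2-fold distance.

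Cxcl1, which draws neutrophils through the same receptor Cxcr2, is the other measured member in the Cxcl5 neighbourhood. On chromosome 5 the RefSeq order is Cxcl5, Ppbp, Pf4, Cxcl3, Cxcl15, Cxcl1 and Cxcl2. Of the 5 members in it, Cxcl5 and Cxcl1 were well above background on all 4 arrays and Cxcl2, Cxcl3 and Cxcl15 on 0. Cxcl1 was at 0.16 and −0.33 in RFP-positive cells and 1.88 and 0.25 in RFP-negative cells. RFP-negative replicate 1 stood far above the other 3 arrays, and RFP-negative replicate 2 was only just above RFP-positive replicate 1. The difference was −1.15 (SE 0.59, n = 2 each, limma adjusted p 0.75), with −0.33 without RFP-negative replicate 1 and −1.96 without RFP-negative replicate 2. Neither Cxcr1 nor Cxcr2 was well above background on any array.

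The promoters of Cxcl1 and Cxcl2 are shown because these neighbours hold the same run of the NF-kB consensus, the site of the inflammatory factor NF-kB, although Cxcl1 was measured and Cxcl2 was not. Those of Ccl9 and Cxcl12 are shown beside them as promoters of other ligands that were lower in RFP-positive cells without overlap. Each line gives the 250 bases before the gene's start from RefSeq, assembly GRCm38.p6, read 5′ to 3′ on the gene's strand, with matches to the consensus in capitals. They lie at chr5:90890995-90891244 (plus strand), chr5:90903649-90903898 (plus strand), chr11:83578637-83578886 (minus strand) and chr6:117168285-117168534 (plus strand).
Cxcl1: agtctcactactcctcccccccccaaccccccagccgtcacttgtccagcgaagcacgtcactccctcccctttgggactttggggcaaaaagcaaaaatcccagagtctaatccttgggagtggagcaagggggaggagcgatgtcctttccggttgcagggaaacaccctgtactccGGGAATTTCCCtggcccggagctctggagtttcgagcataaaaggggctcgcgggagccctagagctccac
Cxcl2: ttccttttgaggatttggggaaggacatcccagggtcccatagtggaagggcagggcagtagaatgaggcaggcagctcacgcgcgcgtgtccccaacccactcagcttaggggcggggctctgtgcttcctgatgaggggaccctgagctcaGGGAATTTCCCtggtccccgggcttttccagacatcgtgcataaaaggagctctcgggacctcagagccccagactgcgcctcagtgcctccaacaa
Ccl9: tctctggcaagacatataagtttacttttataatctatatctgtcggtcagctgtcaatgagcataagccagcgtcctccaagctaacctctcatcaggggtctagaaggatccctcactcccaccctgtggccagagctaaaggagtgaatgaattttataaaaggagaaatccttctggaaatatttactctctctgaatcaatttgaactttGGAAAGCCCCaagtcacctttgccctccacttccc
Cxcl12: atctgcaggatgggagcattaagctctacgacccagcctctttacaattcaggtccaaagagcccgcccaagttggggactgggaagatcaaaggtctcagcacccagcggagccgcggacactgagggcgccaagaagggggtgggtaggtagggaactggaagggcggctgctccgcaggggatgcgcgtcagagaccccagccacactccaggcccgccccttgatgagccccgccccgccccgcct

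The consensus was searched by its 10 letters on both strands. In Cxcl1 and Cxcl2 the matches on the 2 strands overlap and form 1 run, GGGAATTTCCC, which starts 71 bases before the gene's start in Cxcl1 and 97 before it in Cxcl2. Ccl9 has 1 match, GGAAAGCCCC, on the opposite strand. Cxcl12 has 0 matches in this window. Promoters of 38 members were found in the table and 11 of these genes (28.9%) held a match in at least 1 promoter, against 8.23% of all 27025 genes with a promoter there. The 11 were Ackr2, Ccl1, Ccl9, Ccl20, Ccr1, Ccr3, Ccr6, Cxcl1, Cxcl2, Cxcl3 and Cxcl10. Of these only Ccl9 and Cxcl1 were tested, 2 of the 11 tested members with a promoter (18.2%). The other 9 were well above background on no array, as were 24 of the 38 members, so that 37.5% of those 24 held a match. Cxcl5 was not among the 38. A match is a run of letters and does not show that a factor binds there.

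Cxcl12, the ligand of Cxcr4 and Ackr3, was measured on all 4 arrays. Its brighter probe was at 5.15 and 4.62 in RFP-positive cells and 5.37 and 6.08 in RFP-negative cells. RFP-negative replicate 2 was the highest, and RFP-positive replicate 1 and RFP-negative replicate 1 were close to each other. The difference was −0.84 (SE 0.36, n = 2 each, limma adjusted p 0.745), and −0.48 without RFP-negative replicate 2. A probe for another RefSeq transcript of Cxcl12 was at −1.55 and −1.17 in RFP-positive cells and −1.21 and −0.42 in RFP-negative cells. There the fractions overlapped, with a difference of −0.55.

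Cxcr4, the signalling receptor for Cxcl12, was at 4.62 and 4.38 in RFP-positive cells and 4.14 and 4.73 in RFP-negative cells. The RFP-negative arrays enclosed the RFP-positive ones. The difference was 0.07 with a 95% confidence interval from −0.72 to 0.85 (limma adjusted p 0.95), an interval that holds changes of either sign. Ackr3, which binds Cxcl12 and removes it from around the cell, was at −1.48 and −1.78 in RFP-positive cells and −2.15 and −2.83 in RFP-negative cells, without overlap. The difference was 0.86 (SE 0.33, n = 2 each, limma adjusted p 0.745), with 0.52 without RFP-negative replicate 2, which had the lowest value, and 0.30 under normexp. Of the Cxcl12 set the scavenging receptor was higher without overlap, as were 18.8% of all genes tested. The ligand was lower without overlap on 1 of its 2 probes, against 21.6% of all genes, and the signalling receptor overlapped.

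**Figure D3:**
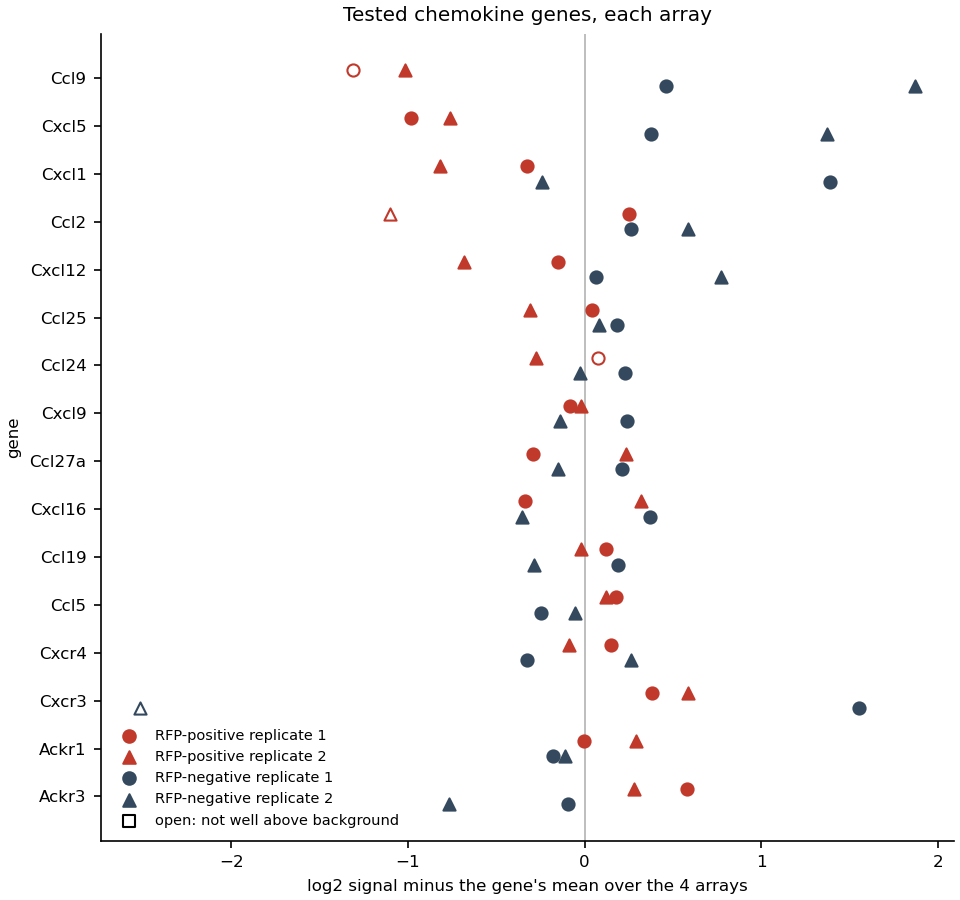
Log2 signal of the 16 tested members on each array, minus the gene's own mean over the 4 arrays. Red marks are RFP-positive and dark marks RFP-negative arrays, circles replicate 1 and triangles replicate 2, and open marks were not well above background; Ccl9 and Cxcl5 separate the fractions most widely, and Ackr3 runs the other way.

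The receptor Cxcr6 was well above background in the RFP-negative fraction alone. It binds Cxcl16 and marks lymphoid cells. On 1 probe it was at −5.24 and −4.42 in RFP-positive cells, neither well above background, and −3.56 and −2.86 in RFP-negative cells. By the array means of this probe it was at least 1.99-fold higher in the RFP-negative fraction. This bound and those given below carry no sampling error. That bound sets the RFP-negative mean against the mean, over the RFP-positive arrays, of whichever was higher, the probe's own signal or the lowest one on that array marked as well above background. Its brighter probe was at −4.36 and −4.16 in RFP-positive cells and −3.77 and −1.87 in RFP-negative cells, and was measured on RFP-negative replicate 2 alone. Cxcr6 was therefore not tested by the rule. Its ligand Cxcl16, a membrane-bound chemokine, overlapped between the fractions, at −2.30 and −1.64 in RFP-positive cells and −1.59 and −2.31 in RFP-negative cells.

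Cxcr3, the receptor for interferon-induced ligands such as Cxcl9 and Cxcl10, was at −3.36 and −3.16 in RFP-positive cells and −2.19 and −6.26 in RFP-negative cells. The RFP-negative arrays lay on both sides of the RFP-positive ones, and RFP-negative replicate 2 was not well above background. The difference of 0.97 (SE 1.34, limma adjusted p 0.841) became −1.07 without that array and 3.0 without RFP-negative replicate 1. Cxcl9 was at −1.28 and −1.22 in RFP-positive cells and −0.96 and −1.34 in RFP-negative cells on its brighter probe, with overlap. Its other probe was well above background on 0 arrays, so the probes disagree on whether Cxcl9 was measured.

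Among the remaining CC ligands, Ccl2, which draws monocytes through Ccr2, was at −2.87 and −4.23 in RFP-positive cells and −2.86 and −2.53 in RFP-negative cells. RFP-positive replicate 2, the low one, was not well above background, and RFP-positive replicate 1 equalled RFP-negative replicate 1 to within 0.01. The difference was −0.85 (SE 0.50, limma adjusted p 0.75), with −1.53 without RFP-positive replicate 1 and −0.17 without RFP-positive replicate 2. Ccl5, which draws T cells and monocytes and binds Ccr1 and Ccr3 among others, was the ligand higher in RFP-positive cells without overlap, at −1.91 and −1.97 against −2.34 and −2.14 in RFP-negative cells. Its difference was 0.30 (SE 0.23, limma adjusted p 0.765), close to its SE, and 0.0356 under normexp. Neither Ccr1 nor Ccr3 was well above background on any array.

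Ccl25, which draws developing T cells to the thymus through Ccr9, was at 3.12 and 2.77 in RFP-positive cells and 3.26 and 3.16 in RFP-negative cells. The difference was −0.27 (SE 0.25, limma adjusted p 0.793), with −0.44 without RFP-positive replicate 1 and −0.0925 without RFP-positive replicate 2. A second probe, for a noncoding RefSeq transcript of Ccl25, differed by 0.26 with overlap, so the probes point opposite ways. Ccl24, a ligand of Ccr3, was at −3.79 and −4.13 in RFP-positive cells, the first not well above background, and −3.64 and −3.89 in RFP-negative cells. These arrays overlapped, with a difference of −0.20 (SE 0.26) that ran between −0.37 and −0.025 with 1 array left out.

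Ccl19, the ligand of Ccr7, and Ccl27a, a ligand of Ccr10, lie on mouse chromosome 4 in a region with near-identical gene copies, so that their probes may also bind other copies. The brightest Ccl19 probe was at −1.03 and −1.17 in RFP-positive cells and −0.96 and −1.43 in RFP-negative cells, a difference of 0.10 (SE 0.27). A dimmer Ccl19 probe, measured on 3 arrays, differed by −0.83 with overlap. The brightest Ccl27a probe was at −0.20 and 0.32 in RFP-positive cells and 0.30 and −0.06 in RFP-negative cells, a difference of −0.06 (SE 0.30). A second Ccl27a probe differed by −0.08. The third differed by −1.42 without overlap, at −0.98 and −2.69 in RFP-positive cells and −0.47 and −0.35 in RFP-negative cells, with RFP-positive replicate 2 far below the rest.

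The atypical receptor Ackr1, which binds many inflammatory CC and CXC chemokines on erythroid cells and venular endothelium, was at −1.08 and −0.79 in RFP-positive cells and −1.25 and −1.19 in RFP-negative cells. The fractions did not overlap, by a gap of 0.11. The difference was 0.29 (SE 0.24, limma adjusted p 0.780), and 0.13 under normexp. Leaving out RFP-positive replicate 1 gave 0.43, and leaving out its partner, replicate 2, gave 0.14. The last 5 members were well above background on 1 or 2 arrays. Ccl17, a ligand of Ccr4, was so on RFP-positive replicate 2 alone, at −3.84. Ccr7 was so on RFP-positive replicate 1, at −3.44, and on RFP-negative replicate 2, at −3.27. Ccl3 and Ccr10 were so on RFP-negative replicate 1 alone, at −3.60 and −2.77, and Ccl7 on RFP-negative replicate 2 alone, at −3.58. These appearances on single arrays do not separate the fractions.

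The 2 RFP-negative arrays differed more among the members than among all genes. The median absolute difference between RFP-negative replicates 1 and 2 was 0.53 over the 16 members and 0.25 over all genes tested. Between the RFP-positive replicates it was 0.30 over the members and 0.38 over all genes. Of the 11 Ccl members on chromosome 11, which holds 2 chemokine clusters, Ccl5 was well above background on all 4 arrays, 4 on some and 6 on none. In RefSeq order Ccl9 lies between Ccl5 and Ccl6, apart from a pseudogene and a noncoding gene, and Ccl6 was well above background on 0 arrays.

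Other chemokine-related genes outside the symbol pattern were read from a list of 11, of which 6 were tested and 0 passed. At an unadjusted p under 0.05, 2 were lower and 0 higher, against 3.72% and 2.77% of all genes tested. The 2 were Rarres2, the chemerin precursor, and Cmklr1, the chemerin receptor. Rarres2 was at 1.18 and 0.82 in RFP-positive cells and 2.18 and 2.62 in RFP-negative cells, a difference of −1.40 (SE 0.29, limma adjusted p 0.634). Cmklr1 was below that mark on both RFP-positive arrays and was at least 1.99-fold higher in the RFP-negative fraction, where it was at −3.08 and −3.45. Both genes were lower in RFP-positive cells without overlap, as were 21.6% of all genes tested. Cmklr1 was tested through the RFP-negative arrays alone, where it is higher, and its limma adjusted p was 0.667. Cx3cl1, the membrane-bound fractalkine, differed by −0.46, and Mif, a cytokine that also binds Cxcr4, by −0.13, both with overlap. Cx3cr1, Xcl1 and Xcr1 were well above background on 0 arrays.

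Of 30 genes that couple receptors to migration, 25 were tested and 0 passed the adjusted threshold. Without overlap 3 were higher and 7 lower, against 18.8% and 21.6% of all genes tested, and the median difference was −0.04. The 4 of smallest p were Pak1 at −0.66 and Ptk2b at −0.66, both kinases of cell movement, Grk3, a kinase that desensitises receptors, at 1.18, and Arrb2, an arrestin, at −0.64. The leukocyte genes Rgs1, Dock2, Pik3cg and Pik3r5 were well above background on 0 arrays. Of 18 genes that hold or cut chemokines in the matrix, 17 were tested and 0 passed. This list had 2 higher and 5 lower without overlap, against the same shares of all genes, and a median of −0.15. In it Mmp9, a protease that cuts chemokines, was higher by 1.16, at −1.34 and −1.91 in RFP-positive cells and −2.60 and −2.98 in RFP-negative cells. Ndst2 and Ext1, enzymes of heparan sulphate synthesis, were at −0.65 and −1.11, and the protease Mmp14 at −0.77.

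Genes of the NF-kB, TNF, IL-1 and interferon inputs, which induce many chemokines, had a median difference of 0.02 over 26 tested of 34 listed. Of these 2 were higher and 7 lower without overlap, against 18.8% and 21.6% of all genes tested, and 0 passed. At an unadjusted p under 0.05, 3 were lower, namely Ltb, Il1r1 and Myd88, against 3.72% of all genes. Ltb and Myd88 were tested through the RFP-negative arrays alone, where they are higher (limma adjusted p 0.398 and 0.745). Ltb, a TNF family ligand, was at least 1.52-fold and Myd88, an adaptor of IL-1 and Toll-like receptors, at least 2.38-fold higher in the RFP-negative fraction, with neither RFP-positive array well above background. Il1r1, the IL-1 receptor, was at −3.06 and −3.48 in RFP-positive cells and −2.37 and −2.18 in RFP-negative cells, a difference of −0.99 (SE 0.27, limma adjusted p 0.711). Stat2, of interferon signalling, was at 0.69. Tnf, Il1a, Il1b, Tlr2 and Tlr3 were well above background on 0 arrays.

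Markers of adipocytes, stroma, leukocytes, mural cells and endoderm had lower summed levels on both RFP-positive arrays than on either RFP-negative array, although 0 of them passed the adjusted threshold one by one. Their part in the results on Ccl9, Cxcl5, Cxcl1, Cxcl12 and Cxcr6 was not tested. In such bulk samples fewer cells of a type and less RNA per cell cannot be told apart. OP9 is a mouse line, so its transcripts bind the same probes. Linear signals relative to the 75th percentile were summed over each marker list, so the brightest probes weigh most. For 12 adipocyte markers the sum was 16.5 to 22.4 in RFP-positive cells and 52.3 to 63.9 in RFP-negative cells. All 12 were tested, 11 were lower without overlap, against 21.6% of all genes tested, and the median difference was −1.60. Cidec, Cfd, Pparg, Fabp4, Plin4 and Adipoq, genes of fat storage and fat cell hormones, differed by −2.54, −1.81, −1.41, −1.58, −1.63 and −1.63. For 17 markers of OP9 stroma and fibroblasts the sum was 217 in RFP-positive cells and 232 to 235 in RFP-negative cells. Of 15 tested, 8 were lower and 0 higher without overlap, against 21.6% and 18.8% of all genes, with a median of −0.66. Differences were above 0 for 2 of the 15 and below 0 for 13. The smallest p-values were those of Vcam1, a cell adhesion molecule (−1.50), the collagen gene Col1a1 (−0.85), Thy1 (−0.89) and the protease inhibitor Timp1 (−1.09), while Dcn and Postn were well above background on 0 arrays.

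**Figure D4:**
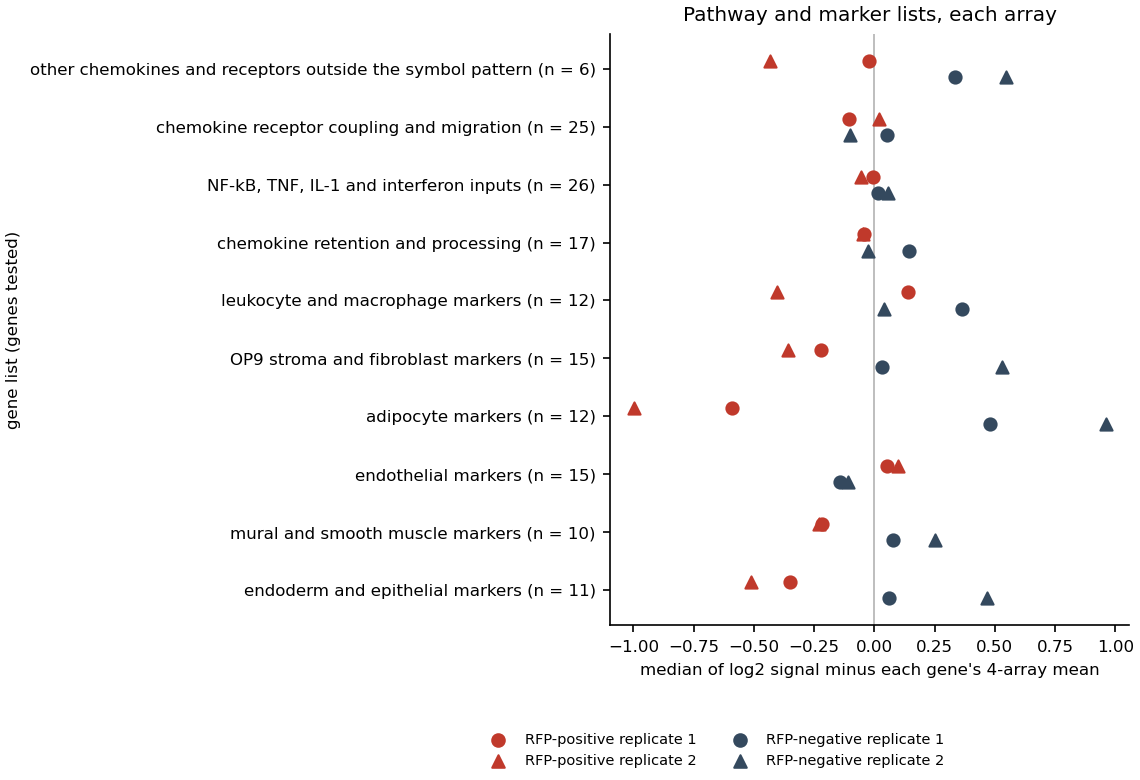
Median over each pathway or marker list of the log2 signal minus each gene's mean over the 4 arrays. Red marks are RFP-positive and dark marks RFP-negative arrays, circles replicate 1 and triangles replicate 2; adipocyte and stromal markers were lower on both RFP-positive arrays and highest on RFP-negative replicate 2, while the NF-kB list stayed near 0.

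For 17 leukocyte and macrophage markers the sum was 138 to 142 in RFP-positive cells and 148 to 156 in RFP-negative cells. Of 12 tested, 0 were higher and 5 lower without overlap, and the median was −0.33. Differences were above 0 for 3 of these genes and below 0 for 9. The list's per-array medians overlapped, at 0.14 and −0.40 in RFP-positive cells and 0.36 and 0.04 in RFP-negative cells. Here and for the lists below, the shares of all genes tested were 18.8% higher and 21.6% lower without overlap. The defining macrophage genes Adgre1, Cd14 and Lyz2, with Cd48 and Elane, were well above background on 0 arrays. Those of smallest p were Coro1a, at least 1.71-fold higher in the RFP-negative fraction, Cd53 at −1.33, Spi1 at −1.11 and Aif1 at −2.42. Coro1a was tested through the RFP-negative arrays alone, where it is higher. Mural and smooth muscle markers summed to 330 to 339 in RFP-positive cells and 386 to 394 in RFP-negative cells, with a median of −0.50 and 6 of 10 lower without overlap. They included the contractile genes Cnn1 (−0.62), Myl9 (−0.79), Actg2 (−0.84) and Acta2 (−0.99), and Cspg4 was well above background on 0 arrays. Endoderm and epithelial markers summed to 25.6 to 28.4 in RFP-positive cells and 31.8 to 57.6 in RFP-negative cells, with 5 of 11 lower without overlap and a median of −0.68. They included Rbp4 at −2.01, Spink1 at −1.97, Epcam at −1.55 and Cldn6 at −1.52, and Afp and Apoa1 were well above background on 0 arrays. Of the 11 endoderm differences, 3 were above 0 and 8 below. Endothelial markers, Kdr among them, summed to 122 to 139 in RFP-positive cells and 106 to 110 in RFP-negative cells, with 7 of 15 higher and 0 lower without overlap and a median of 0.13. They included Flt1 at 0.84, Sox7 at 0.83, Cldn5 at 0.60 and Tek at 0.40. Of the 15 endothelial differences, 10 were above 0 and 5 below.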

How the data were processed

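Total RNA of 4 sorted samples was measured on Agilent one-colour (Cy3) arrays, 1 slide and 1 scan, so that neither was testable as a batch. Per the file headers, Agilent Feature Extraction (version 10.10.1.1) made the intensity values used here, its background-corrected processed signal. The deposited value table held the same intensity values, each array multiplied by a constant, 5.82 and 5.39 for the RFP-positive and 6.45 and 6.02 for the RFP-negative replicates, with column medians of 133.9, 142.3, 136.2 and 143.9; the origin of these constants is not stated in the labels. The scanner's marks (well above background, outlier) are 0 or 1, per the file headers.

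Control spots (3671 of 62976) and outlier spots (115 to 153 per array) were left out. Log2 signals minus the array's 75th percentile were averaged per probe. Symbols came from matching each probe's accession to RefSeq genes, assembly GRCm38.p6 (27235 of 55681 probes with 1 symbol), and the brightest probe stood for a gene. A probe counted as well above background where all its spots were. Promoters came from a RefSeq table. Protein sequences were not used here. The comparison used limma (3.58.1, under R 4.3.3, lmFit, eBayes, two-sided, Benjamini-Hochberg over 13420 genes, 2 residual and 2.77 prior degrees of freedom). The fit was also run on simulated data drawn with the spread that limma assumes. That run checks the code and says nothing about these arrays. With 2 arrays per fraction, the number of arrays limits the precision.

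Members and lists were chosen with earlier results of these data known. Members are named, apart from some receptors well above background on no array, of which 1 is not reported here; tested members get their values, and of each other list the 4 genes of smallest p and those with every array of 1 fraction at least 2-fold from every array of the other. The alternatives were quantile and median scaling, normexp (offset 50, on median signals), the deposited table, other filters, probe rules and eBayes settings, the replicate block, other thresholds, each array left out, and the mark for a positive and significant signal. Figures were drawn with matplotlib 3.10.9.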

Additional observations from a re-analysis of the deposited data

How the results depend on the processing

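In all settings that used the 4 arrays 0 members passed the adjusted threshold, also at adjusted p under 0.1 and 0.2. Of the tested members' differences under the alternatives 222 kept their sign and 14 changed it, those of Ccl19, Ccl27a, Cxcl9, Cxcl16, Cxcr3 and Cxcr4. The deposited table, the other filters, the eBayes settings and the replicate block leave a difference as it was by construction. Many of the 222 could therefore not change, and their number does not measure robustness. The differences of Ccl9 (−3.03 to −0.90), Cxcl5 (−2.24 to −0.68), Cxcl12 (−1.19 to −0.48), Cxcl1 (−1.96 to −0.33) and Ackr3 (0.30 to 1.20) kept their sign. The causes of the changes were not tested. Centring on the array median moved the members' median difference to 0.0033 (that of all genes to 0.03), Ccl27a to 0.0232 and Cxcl16 to 0.0674. Normexp turned Cxcr3 to −0.11 and left 0 members at least 2-fold lower. With no filter, 11 of 52 members were lower without overlap, against 19.2% of 20653 genes, with a median of −0.20 (−0.12 over all genes). With only genes measured on all 4 arrays, 1 was at least 2-fold lower, with a median of −0.0386 over 12 members. The mean of a gene's probes gave a median of −0.20 over 17 members, Ccl19 at −0.53 and Cxcl9 at 0.0766. By the mark for a positive and significant signal 46 members were measured, in place of 22.

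With 1 array left out, the lone array of a fraction is assumed to vary like the others. The number of members with an unadjusted p under 0.05 then ran from 2 to 5, without overlap from 3 to 7 higher and 7 to 11 lower, at least 2-fold from 0 to 2 higher and 2 to 3 lower, and the median from −0.32 to 0.0082. Differences ran from −0.32 to 0.20 for Ccl27a, −0.38 to 0.34 for Cxcl16, −0.23 to 0.36 for Cxcr4, −0.29 to 0.0888 for Cxcl9, −0.14 to 0.33 for Ccl19 and −1.07 to 3.0 for Cxcr3. The replicate block gave 4 members at an unadjusted limma p under 0.05, with no share of all genes at hand. Without the block there were 3, against 6.49% of all genes. With it the limma adjusted p was 0.629 for Ccl9 and Cxcl5. Deviations of same-numbered samples from their fraction's mean correlated at 0.09 over 13420 genes. This single value cannot show whether same-numbered samples came from the same culture. The main fit did not take the numbers as pairs. The choice of probe by the number of arrays it was measured on was added after seeing the data. It gave 17 members tested and 4 at an unadjusted p under 0.05, against 6.49% of all genes. The added one, Cxcr6, entered through a probe measured in RFP-negative cells alone. Signals near background limit Ccl9, Ccl2, Ccl24, Cxcr3 and Cxcr6. Those of Cxcl5 in RFP-positive cells were well above background but dim, at −3.57 and −3.36. The lowest signals so marked on these arrays were −3.98 and −4.54.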
